A study of Sus scrofa with 3 samples.

Results

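Tudor domain proteins are building blocks of germ granules, and the genes described here are the members of that family listed for the germ line: TDRD1, TDRD3, TDRD5, TDRD6, TDRD7, TDRD9, TDRD12, TDRKH, STK31 and RNF17. They were chosen by name, as rows of the deposited expression table whose gene symbol is one of these 10. The rule found 8 of the 10, among 18730 genes in all. TDRD12 has a row without a symbol, which was matched by its Ensembl ID and is given beside the 8 but not counted with them. TDRD7 was not analysed here.

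The data are 3 RNA libraries of SSEA4-positive spermatogonia from 90-day-old pigs. SSEA4, a globo-series glycolipid on the cell surface, was tested by the study as a means to enrich porcine stem cells of the germ line. The libraries, named S1, S2 and S3 here as in the table, are of 1 group: undifferentiated spermatogonia, also named in the study's design, were not analysed here. The labels give no genotype, breed or treatment, and nothing in them ties a library to its own animal, so p-values rest on a spread that may be technical. Values are the authors' FPKM, scaled for gene length and for the mapped fragments of a library, so levels can be compared between genes. The table holds no counts and its depth is unknown.

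Many Tudor domains of germ granule proteins bind methylated arginine. In the germ line their best known ligands are the PIWI proteins. Arginines near the N-terminus of PIWI proteins are symmetrically dimethylated by PRMT5 with its cofactor WDR77. PIWI proteins carry piRNAs, small RNAs that direct the silencing of transposons, and Tudor domain proteins bring them together with helicases and nucleases in granules without a membrane, such as the cement between mitochondria and the chromatoid body of spermatids. In mice, loss of many of these proteins ends spermatogenesis in meiosis or in spermatids.

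All 8 genes found by symbol lay above 1 FPKM by more than the spread between libraries, with means between 4.42 and 145 FPKM. The test was limma on log2(FPKM + 1) against the level of 1 FPKM, with Benjamini-Hochberg adjustment over 17949 genes. That level is a low bar, since 65.6% of the genes tested lay above it and 28.5% below, and none of the 8 lay below. Against 5 FPKM, 7 of the 8 lay above, where 42.5% of all genes did, and against 10 FPKM, 6 of the 8, where 30.3% did. The members' median of log2(FPKM + 1) was 4.87, and that of all genes tested was 2.30. By the mean of its FPKM values the median member ranked above 84.5% of the genes tested.

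STK31, also known as TDRD8, joins a Tudor domain to a kinase-like domain and was the most abundant member. It had 136, 138 and 163 FPKM in S1, S2 and S3, and averaged 145 ± 15.1 FPKM (SD, n = 3). This level ranked above 97.9% of the genes tested, at a log2 difference of 6.19 ± 0.07 (SE) from 1 FPKM (limma, adjusted p = 4.39e-08). STK31 made up 43.4%, 43.1% and 42.7% of the summed FPKM of the 8 genes in S1, S2 and S3, so its share hardly varied between libraries. The sum itself was 312, 320 and 381 FPKM, the highest in S3.

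TDRD1, a scaffold with several Tudor domains that binds PIWIL2 in mice, came next. Its values were 60.2, 65.8 and 74.3 FPKM in S1, S2 and S3, a mean of 66.7 ± 7.10 FPKM (SD, n = 3; limma, adjusted p = 6.72e-08). No value of TDRD1 reached the lowest of STK31, which was 2.18 ± 0.08 times as high within a library (SD, n = 3). TDRD1 took 19.8% ± 0.71 of the members' sum, so that STK31 and TDRD1 held the larger part of it in every library.

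TDRD3 is also expressed widely outside the germ line. It binds the topoisomerase TOP3B and the FMR1 family of RNA-binding proteins, and reads asymmetrically dimethylated arginine on histones. TDRD3 had 35.6, 33.7 and 45.9 FPKM in S1, S2 and S3, and averaged 38.4 ± 6.55 FPKM (SD, n = 3; limma, adjusted p = 2.82e-07). RNF17, or TDRD4, carries a RING finger besides its Tudor domains and is needed for spermatid development in mice. It had 29.4, 29.7 and 40.7 FPKM, with a mean of 33.3 ± 6.46 FPKM (SD, n = 3; limma, adjusted p = 4.61e-07). The ranges of TDRD3 and RNF17 overlapped, although TDRD3 was the higher gene in 3 of 3 libraries, at 1.16 ± 0.05 times RNF17. They are the only neighbours in the order of the 8 levels whose ranges overlapped.

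TDRD6, a structural protein of the chromatoid body in mice, and TDRKH, or TDRD2, which holds KH domains and anchors PIWI proteins at mitochondria, varied least between libraries. TDRD6 had 23.6, 24.2 and 25.3 FPKM in S1, S2 and S3, a mean of 24.3 ± 0.89 FPKM (SD, n = 3; limma, adjusted p = 7.23e-08). TDRKH had 15.4, 15.5 and 16.1 FPKM, a mean of 15.7 ± 0.39 FPKM (SD, n = 3; limma, adjusted p = 1.34e-07). Their coefficients of variation were 3.65% and 2.47%, while the other 6 genes ranged from 10.4% in STK31 to 19.4% in RNF17. The ratio of TDRD6 to TDRKH, which does not depend on how libraries are scaled, was 1.53, 1.56 and 1.57 in S1, S2 and S3.

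TDRD9 and TDRD5 were the least abundant members. TDRD9 is a helicase that works with PIWIL4 in mice; it had 8.75, 9.0 and 11.0 FPKM in S1, S2 and S3 and averaged 9.57 ± 1.22 FPKM (SD, n = 3; limma, adjusted p = 1.42e-06). TDRD5, which carries a LOTUS domain and is needed in mice for the chromatoid body and for piRNA production, had 4.00, 3.93 and 5.31 FPKM and averaged 4.42 ± 0.78 FPKM (SD, n = 3; limma, adjusted p = 3.14e-05). TDRD5 ranked above 52.1% of the genes tested, close to the middle of the table, and STK31 was 32.9 times as abundant by mean FPKM. TDRD9 was not told apart from a level of 10 FPKM, nor TDRD5 from 5 FPKM.

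TDRD12, a relative of the helicases that associates with PIWIL2 in mice, had 30.9, 30.5 and 39.7 FPKM in S1, S2 and S3 in the row matched by ID. Its mean of 33.7 ± 5.21 FPKM (SD, n = 3; limma, adjusted p = 2.58e-07) placed it between TDRD3 and RNF17. In the RefSeq annotation of the Sscrofa11.1 assembly the TDRD12 locus overlaps SLC7A9 and a pseudogene, and the RNF17 locus holds a pseudogene. How reads of overlapping loci were divided is not given in the sources used here, so these values carry that uncertainty. TDRD9 is not placed on a chromosome there, and no gene overlaps the loci of the other 6 members found by symbol.

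**Figure D1:**
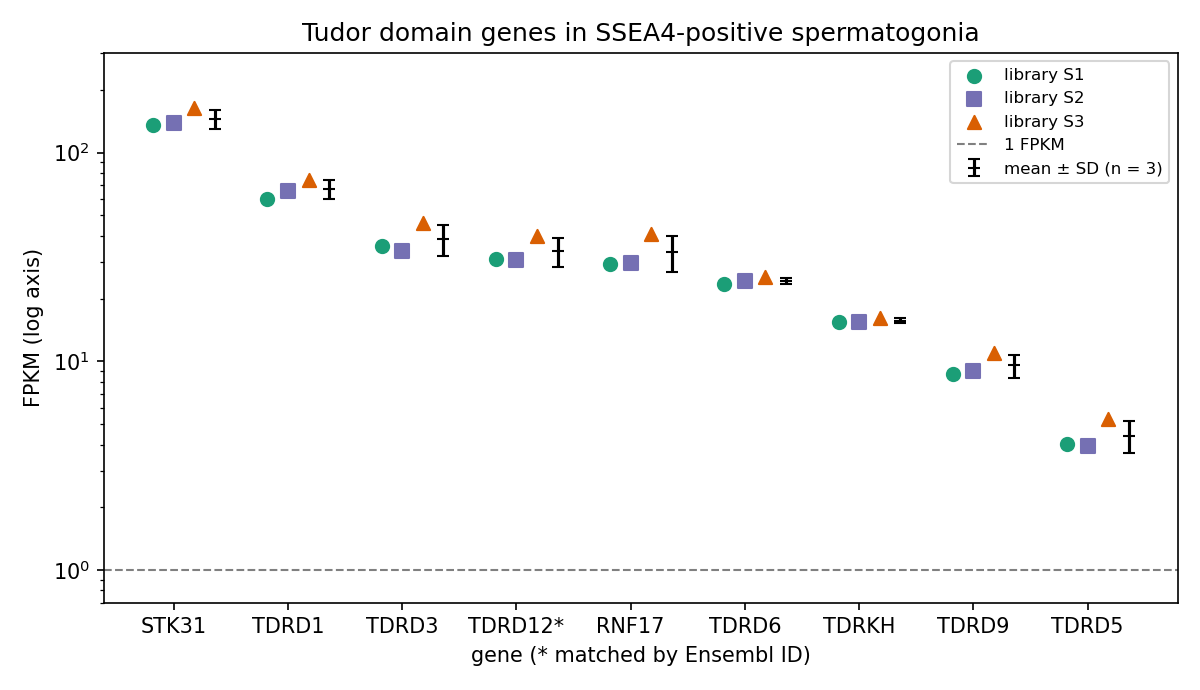
FPKM (log axis) of the 8 Tudor domain genes and of TDRD12, matched by ID, in libraries S1, S2 and S3, with the mean and SD of 3 libraries as a bar; the dashed line is 1 FPKM. STK31 stands highest at 136 to 163 FPKM and TDRD5 lowest at 3.93 to 5.31 FPKM, and the triangle for S3 is the highest of the 3 points in each gene, which holds for 6 of the 8 under quantile normalization.

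The order STK31, TDRD1, TDRD3, RNF17, TDRD6, TDRKH, TDRD9, TDRD5 held in each of the 3 libraries. Of the 7 pairs of neighbours in this order, 6 had ranges that did not overlap. An exact sign-flip test of such a pair cannot give a two-sided p under 0.25 with 3 libraries, so no test of the pairs is given.

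Genes with the levels most like a member's were found by Euclidean distance of log2(FPKM + 1) over the 3 libraries. PTPN12 lay nearest to STK31, at a distance of 0.05, with 138, 134 and 163 FPKM in S1, S2 and S3, and PAPOLA followed at 0.08. SLF2 at 0.06 and XPOT at 0.09 were nearest to TDRD1. ZNF280B at 0.08 and FOXO1 at 0.08 were nearest to TDRD3, and PASK at 0.03 and TUBGCP6 at 0.04 to TDRD5. With 3 libraries of 1 group, such likeness describes level more than pattern.

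Transcripts of a list of piRNA pathway genes and germ cell regulators spanned a wide range, with a list median near that of the members. The list, named piRNA pathway partners here, is not limited to proteins that Tudor domain proteins work with. Of its 22 genes 19 were measured, 18 over 1 FPKM and 1 under it (limma, adjusted over all genes). Of all genes tested, 65.6% lay above that level. Their median log2(FPKM + 1) was 4.77, beside 4.87 for the members and 2.30 for all genes tested. The highest were ASZ1, a mitochondrial scaffold of piRNA production, at 193 ± 12.8 FPKM, GTSF1, a PIWI cofactor, at 124 ± 13.2, and RBM46, a germ cell RNA-binding protein, at 96.5 ± 3.57 (SD, n = 3 each). The lowest were NANOS2, an RNA-binding protein of spermatogonial stem cells, at 7.68 ± 1.40 FPKM, and BTBD18, a nuclear regulator of piRNA precursor transcription in mice, at 0.657 ± 0.069, the gene below the level (limma, adjusted p = 0.00165). DDX4, the helicase that marks germ granules, stood at 81.5 ± 3.18 FPKM, between STK31 and TDRD1.

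Among the PIWI genes, PIWIL4 had 34.4, 36.5 and 28.0 FPKM in S1, S2 and S3, PIWIL2 24.2, 24.9 and 30.0 FPKM, and PIWIL1 14.4, 16.1 and 15.7 FPKM. Set against these within each library, TDRD1 was 2.54 ± 0.09 times PIWIL2 and TDRD12 1.27 ± 0.05 times PIWIL2 (SD, n = 3). TDRKH stood close to PIWIL1, at 1.02 ± 0.06 times its level, and TDRD6 at 1.58 ± 0.07 times. TDRKH also recruits PNLDC1, the nuclease that trims piRNAs in mice, and was 0.884 ± 0.058 times as high as PNLDC1.

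TDRD9 was the exception, well under its partner PIWIL4 in every library and varying more. The ratio of TDRD9 to PIWIL4 was 0.392 in S3, against 0.254 in S1 and 0.247 in S2. The numerator was highest and the denominator lowest in S3. Other ratios to PIWI genes differed by less: that of TDRD1 to PIWIL2 was 2.48 in S3, against 2.49 in S1 and 2.64 in S2.

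**Figure D2:**
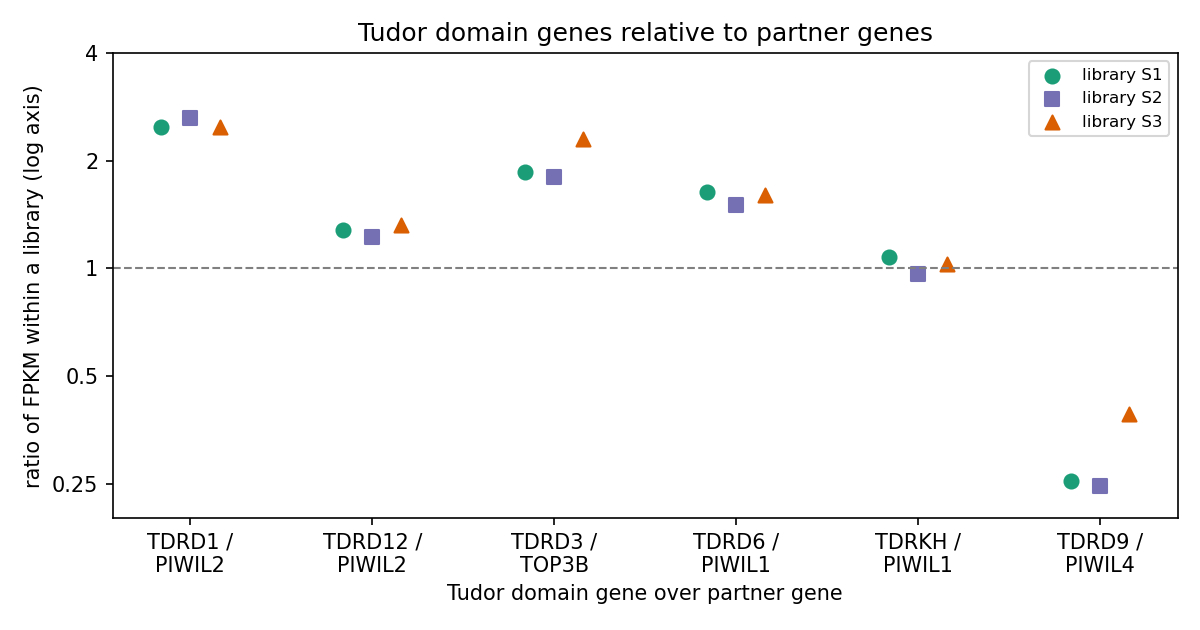
Ratio of the FPKM of a Tudor domain gene to that of a partner gene within a library (log axis), for 6 pairs and libraries S1, S2 and S3; the dashed line is equal level. TDRD1 stands above PIWIL2 at 2.48 to 2.64 and TDRD9 under PIWIL4 at 0.247 to 0.392, where S3 lies apart from S1 and S2.

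TDRD3 has partners of its own, and its listed complex was abundant. FMR1, an RNA-binding regulator of translation, averaged 304 ± 19.0 FPKM, its paralogs FXR1 171 ± 9.70 and FXR2 33.0 ± 2.78, and TOP3B 19.3 ± 0.61 FPKM (SD, n = 3 each). All 4 lay above 1 FPKM (limma, adjusted p between 3.96e-08 and 9.87e-08), as did 65.6% of all genes tested. Within a library TDRD3 was 2.30 times TOP3B in S3, against 1.86 in S1 and 1.80 in S2, and 0.126 ± 0.015 times FMR1.

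The enzymes that write the arginine marks were present as well. Of 13 listed genes 12 were measured, 11 above 1 FPKM and 1 below, where 65.6% of all genes tested lay above and 28.5% below. PRMT1, the main asymmetric methyltransferase, led at 91.6 ± 8.37 FPKM. CLNS1A, an adaptor of PRMT5, followed at 64.0 ± 2.77 and PRMT5 itself at 54.4 ± 2.11, while WDR77 had 14.5 ± 0.74 FPKM (SD, n = 3 each). The lowest were PRMT6 at 2.13 ± 0.22 and PRMT8, a methyltransferase of the brain, at 0.434 ± 0.159 FPKM (limma, adjusted p = 0.000805 for a level below 1 FPKM). The list median was 4.27 on the log2(FPKM + 1) scale.

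Tudor domains also occur in proteins outside the germ granule. Of 25 such genes listed, 23 were measured and all 23 lay above 1 FPKM, where 65.6% of all genes tested did. Their median was 4.65 on the log2(FPKM + 1) scale, beside 4.87 for the 8 members. In the RNA-binding or spliceosomal subset, SMNDC1, a splicing factor, stood at 135 ± 8.62 FPKM, SND1, or TDRD11, at 33.4 ± 1.40, AKAP1, which like TDRKH joins a KH and a Tudor domain at mitochondria, at 21.1 ± 2.66, and TDRD10 at 7.10 ± 0.85 (SD, n = 3 each). Among 19 chromatin proteins the highest were SGF29, the SAGA complex reader, at 197 ± 20.2 FPKM, ARID4B at 188 ± 11.4 and SETDB1, a histone H3 methyltransferase, at 107 ± 17.2. The lowest were KDM4C, a histone demethylase, at 4.06 ± 0.18 and PHF19, of Polycomb, at 3.80 ± 0.86. The range of the 8 members, 4.42 to 145 FPKM, thus lay inside that of the chromatin proteins.

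**Figure D3:**
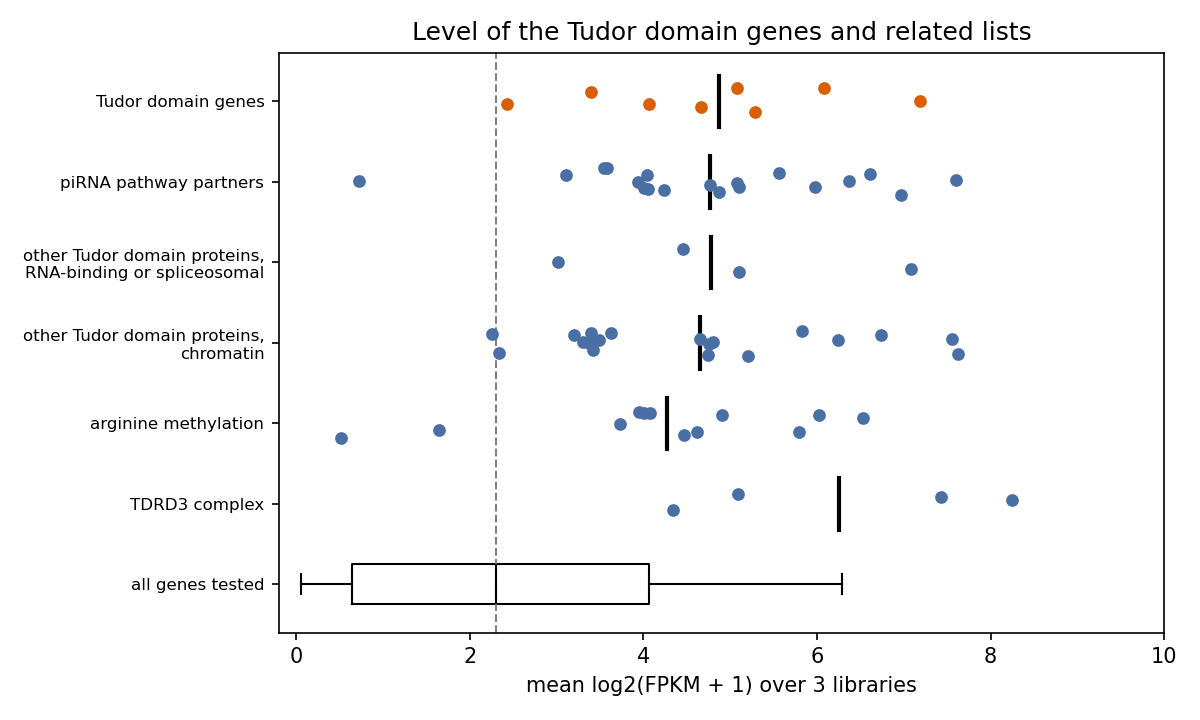
Mean log2(FPKM + 1) over 3 libraries for the members of each list (1 point a gene; vertical bar, list median) and for all 17949 genes tested (box, quartiles and median; whiskers, the central 90% of genes; dashed line, their median of 2.30). The 8 Tudor domain genes have a median of 4.87, near the 4.77 of piRNA pathway partners, and each of them lies to the right of the dashed line.

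Library S3 held the highest deposited value of every one of the 8 members, and of TDRD12, though of 6 of the 8 under quantile normalization. The same was so for 50.0% of the 12340 genes that averaged 1 FPKM or more and for 45.2% of all genes tested, so the count has to be read against these shares. The members' median difference of S3 from the mean of S1 and S2 was 0.26 on the log2(FPKM + 1) scale, beside 0.05 for those 12340 genes. With 1 library against 2 of the same group there is no test of it.

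The members were not alike in this. RNF17 differed most, with 40.7 FPKM in S3 against a mean of 29.5 FPKM in S1 and S2, a ratio of 1.38. For TDRD5 the ratio was 1.34, for TDRD3 1.32, for TDRD12 1.29, for TDRD9 1.24, for STK31 1.19 and for TDRD1 1.18. TDRD6 at 1.06 and TDRKH at 1.04 stood close to the bulk of genes: their log2 differences exceeded those of 55.2% and 50.9% of the 12340 genes, and that of RNF17 exceeded 96.7% of them. Relative to TDRKH in the same library, which leaves out the scaling, RNF17 was 2.52 in S3, against 1.905 in S1 and 1.914 in S2.

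The scale of the libraries bears on the smaller of these differences. Once genes of the mitochondrial genome and of ribosomal proteins were taken out and each library was rescaled, 6 of the 8 members were highest in S3, where 39.7% of genes were, and the difference of TDRKH turned to -0.01. After rescaling each library to a sum of 1000000, all 8 were highest in S3, where 69.1% of genes were. The members' median minus that of genes averaging 1 FPKM or more was 0.21 as deposited, 0.22 after the rescaling to 1000000 and 0.21 with those genes removed. Each rescaling multiplies all genes of a library by a single factor, so this difference could hardly change and its constancy is no check. Under quantile normalization, which does not use a single factor, it was 0.20.

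The counts for other lists are set beside the 50.0% of genes averaging 1 FPKM or more that were highest in S3. Of the 10 germ cell markers measured, 6 were highest in S3 and 0 lowest, which is near that share. Their median difference was 0.14, beside 0.05 for those genes. The germ cell markers summed to 943 FPKM in S3, against 811 in S1 and 850 in S2. NANOS3, an RNA-binding protein of spermatogonia, accounted for 98.1 FPKM of this sum in S3, against 50.0 and 43.7. Its level in S3 was 2.09 times its mean in S1 and S2. DDX4 was among the 4 germ cell markers not highest in S3, with 81.1 FPKM there, against 78.5 in S1 and 84.8 in S2. RNF17, taken as the member that differed most, was thus 0.502 times DDX4 in S3, against 0.374 in S1 and 0.350 in S2. The partner list was highest in S3 for 11 of 19 genes, with a median difference of 0.11, and the chromatin Tudor proteins for 15 of 19, with 0.21. The RNA-binding or spliceosomal Tudor proteins had a median of -0.13, with SMNDC1, SND1 and AKAP1 lowest in S3. After rescaling to 1000000 this median was 0.00076, while that of genes averaging 1 FPKM or more moved from 0.05 to 0.17. Without mitochondrial and ribosomal protein genes the list's median was -0.21, beside -0.01 for those genes. Under quantile normalization it was -0.22, beside 0.02.

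Of the genes averaging 1 FPKM or more, 50.0% were highest in S3. Of the 8 meiotic markers, all above 1 FPKM, 5 were highest in S3 and 2, HORMAD1 and DMC1, lowest. Their summed level was 442 FPKM in S3, against 337 in S1 and 349 in S2, with SMC1B, a meiotic cohesin subunit, at 168 FPKM in S3, against 118 and 132. The 9 Sertoli cell markers, 6 above 1 FPKM and 3 below, summed to 192 FPKM in S3, against 417 in S1 and 310 in S2; CLU, which is not made by Sertoli cells alone, accounted for 125, 325 and 234 FPKM of these sums in S3, S1 and S2, and without it they were 66.7 FPKM in S3, against 91.9 in S1 and 76.7 in S2. Of the 5 Leydig cell markers measured, 2 lay above 1 FPKM, 2 below and 1 was not told apart from it. They summed to 4.66 FPKM in S3, against 15.5 in S1 and 12.4 in S2. CYP11A1, which starts steroid synthesis, accounted for 2.64 FPKM of this sum in S3, against 12.01 and 9.75. INSL3 had 0.481 FPKM in S3, against 1.70 in S1 and 0.911 in S2. CYP17A1 had 1.47 FPKM in S3, against 1.70 and 1.52, and LHCGR was listed at 0 in S1 and S3. Of the 5 Leydig markers 4 were lowest in S3 and 0 highest, where 6077 of the 17949 genes tested were lowest in S3. The median difference of the Leydig list was -0.08, and -0.49 with a pseudocount of 0.1. The 6 peritubular and fibroblast markers summed to 69.8 FPKM in S3, against 108 and 82.4, with 3 of the 6 lowest in S3. TAGLN, a smooth muscle protein, accounted for 8.87 FPKM of this sum in S3, against 37.2 and 24.4, and without it the sum was 60.9 FPKM in S3, against 70.5 in S1 and 58.0 in S2. The highest of them was DCN, a matrix proteoglycan, at 31.4 ± 3.20 FPKM (SD, n = 3). Mitochondrially encoded genes took 52.7% of the summed FPKM in S3, against 57.7% in S1 and 59.3% in S2. The part of any of these in the members' difference was not tested, and in bulk RNA fewer cells of a type and less RNA per cell cannot be told apart.

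**Figure D4:**
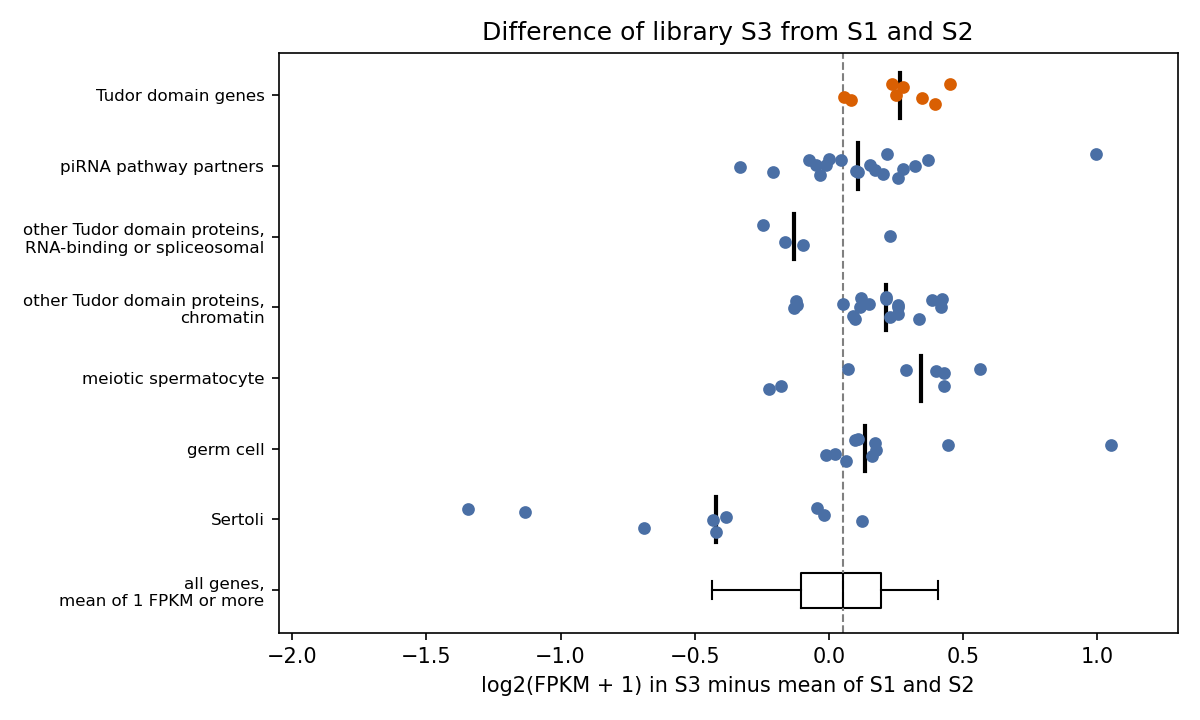
Difference of log2(FPKM + 1) in library S3 from the mean of S1 and S2, for the members of each list (1 point a gene; vertical bar, list median) and for the 12340 genes averaging 1 FPKM or more (box, quartiles and median; whiskers, the central 90% of genes; dashed line, their median of 0.05). The 8 Tudor domain genes lie between 0.06 and 0.45 as deposited (TDRKH turned to -0.01 in 1 rescaling), and the Sertoli cell markers have a median of -0.42.

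Fixed markers of cell types were set beside the label of the cells. All 10 germ cell markers measured, of 12 listed, lay above 1 FPKM, where 65.6% of all genes tested did. That level does not separate cell types, since all 6 peritubular and fibroblast markers and 6 of 9 Sertoli cell markers also lay above it. SYCP3, a protein of the meiotic chromosome axis, was the highest germ cell marker at 403 ± 32.6 FPKM, and GFRA1 the lowest at 2.96 ± 0.74. KIT, the receptor of differentiating spermatogonia, had 17.1 ± 1.40 and ZBTB16, a factor of undifferentiated ones, 5.16 ± 0.41 FPKM (SD, n = 3 each). Among Sertoli cell markers, CLU averaged 228 ± 100 FPKM and WT1 42.8 ± 2.50, while FSHR, AMH and DHH lay below 1 FPKM. Of 9 markers of spermatids, the cells in which mouse TDRD6 builds the chromatoid body, 3 lay above 1 FPKM, 4 below and 2 were not told apart from it. The highest was SPACA1, an acrosome protein, at 23.6 ± 4.63 FPKM. The summed spermatid markers were 97.1, 24.9 and 46.3 FPKM in S1, S2 and S3, and PRM1, a protamine, accounted for 51.0, 1.53 and 11.0 FPKM of these sums. SPACA1 had another order, with 22.5, 19.6 and 28.7 FPKM in S1, S2 and S3, and 2 of the 9 spermatid markers, SPACA1 and ACRV1, were highest in S3. Of 4 leukocyte markers none lay above the level and 3 lay below, the highest being CD68 at 0.906 ± 0.597 FPKM, and of 3 endothelial markers 2 lay above, led by KDR at 4.70 ± 0.47 FPKM (SD, n = 3 each).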

How the data were processed

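Directional libraries of rRNA-depleted RNA were sequenced in 150 bp pairs on a HiSeq 4000, per the labels' protocols. The same protocols name cutadapt 1.9.3 for trimming, HISAT2 2.0.4 for alignment and Cuffdiff, of Cufflinks, for gene-level FPKM, the unit of the deposited values. The table's own name says TPM, but its columns sum to 859642, 855276 and 781871. Depth is unknown. The labels and the submitters' processing notes name susScr3 and Sscrofa11.1, and without a single build coordinates are left out. The column names do not tell which labelled sample each is.

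Symbols came from the table, otherwise from reference names (737 rows); 334 rows with differing symbols were no list members. Values under 1e-06 were set to 0. The 17949 genes above 0 in some library were tested as log2(FPKM + 1) with limma 3.58.1 (intercept only, trend, two-sided, threshold 0.05) in R 4.3.3. A check on simulated data used independent noise between libraries, so it does not show that the 3 libraries are independent. Adding 1 understates differences of low genes. Alternatives were other pseudocounts, a filter, rescalings, quantile normalization, other levels, no trend and leaving out a library. Members, lists and tests were chosen with earlier results of these data known. Named were all members, at least the 3 highest and 2 lowest of each related list, the highest marker of each list, and the 2 nearest genes of 4 members; other genes were chosen after their values were seen.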

Additional observations from a re-analysis of the deposited data

How the results depend on the processing

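All 8 members stayed above 1 FPKM under the other pseudocounts, scalings, filter, fit without a trend and with each library left out. Against other levels the direction changed for the 2 lowest: TDRD5 stood at a log2 difference of -0.16 from 5 FPKM and -1.03 from 10 FPKM, and TDRD9 at -0.063 from 10 FPKM, with 1 member then below (limma). The order of the 8 levels was the same in the 6 alternatives run for it. Among all genes, 11771 lay above 1 FPKM and 5111 below; 7632 and 9130 did so for 5 FPKM and 5436 and 11479 for 10 FPKM. Those below 1 FPKM numbered 798 under a filter at 0.5 FPKM, which drops low genes, and 2924 without the mitochondrial and ribosomal protein genes, where the others are scaled up. That rescaling moved the median log2 level of the members to 6.45, of piRNA partners to 6.34, of other Tudor domain proteins to 6.22 and of arginine methylation genes to 5.83. Rescaling to 1000000 gave 5.13, 5.03, 4.90 and 4.52, and the filter gave 4.46 for arginine methylation genes. With TDRD12 added, chosen after the data were seen, the members' median was 5.08. No paired analysis was possible because the libraries form 1 group. Without counts, no interval can be given for the lowest values.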
